A study of Homo sapiens with 40 samples.

Results

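Human mitochondrial DNA carries the genes of both mitochondrial ribosomal RNAs and of some subunits of the respiratory chain. The 8 genes described here are the rRNA genes MT-RNR1 (12S) and MT-RNR2 (16S), the complex III gene MT-CYB, the complex IV genes MT-CO1, MT-CO2 and MT-CO3, and the complex V genes MT-ATP6 and MT-ATP8. They were chosen by symbol and not by a cut on their values, but with earlier results of these data known. The count table lists 58395 genes, 28922 of which were tested. All 8 passed the filter on low counts. They lie on the heavy strand of chromosome M, as do the 6 complex I genes with which they are compared.

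Mitochondrial RNA is made as long transcripts of each strand, which are cut at the tRNAs that lie between most genes. The rRNA pair lies nearest to the heavy-strand promoters, and its transcription can end just after MT-RNR2. The 12S and 16S RNAs form the small and the large subunit of the mitochondrial ribosome. Cytochrome b is the catalytic core of complex III, MT-CO1, MT-CO2 and MT-CO3 encode the core of cytochrome c oxidase, and MT-ATP6 and MT-ATP8 encode membrane subunits of ATP synthase that are translated from a shared mRNA.

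Poly(A) RNA was measured in HEK293A, an adherent human embryonic kidney line, as wild-type (WT) cells and as 1 CRISPR/Cas9 clone without PARP1 (PARP1-KO), a sensor of DNA breaks. In every comparison of the genotypes, loss of PARP1 and other traits of this 1 clone cannot be told apart. Each genotype had 5 treatments and 4 libraries per treatment, 40 libraries in all. The treatments were no treatment, 0.1% DMSO, topotecan (Tpc, which traps topoisomerase 1 on DNA), 5 μM OL9-119 (which inhibits TDP1, a DNA repair enzyme) and Tpc with OL9-119, for 5 to 5.5 h, and DMSO was also present in the 3 drug treatments. Tpc was given at 100 nM to WT and at 50 nM to PARP1-KO cells, so that in the Tpc groups genotype and dose cannot be told apart. The labels call the replicates biological and the methods call them technical in 1 place, so p-values measure the spread between these libraries, which may be technical. One label field reads knockdown where titles and design text say knockout.

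PARP1 was at 780.7 to 887.1 CPM (read counts scaled to a common library size, here with TMM factors) in untreated WT libraries and at 33.5 to 43.9 in untreated PARP1-KO libraries, and no PARP1-KO library of any treatment reached 50. Total counts ranged from 3455043 to 20379777 per library, and chromosome M took 6.38 to 7.53% of them in untreated WT and 3.96 to 4.77% in untreated PARP1-KO libraries. The epithelial genes KRT8 and KRT18 had medians of 674 and 272 CPM and VIM 752, while the renal factor PAX8 had a median of 0.505 CPM. The blood cell genes PTPRC, CD3E and CD68 had medians of 0.

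Among the PARP1-KO libraries, 2 stood apart from their groups. MT-ND5, a complex I gene, was at 711.8 CPM in the library labelled DMSO replicate 3 and at 1659 to 2079 in the other DMSO libraries. It was at 2139 CPM in the library labelled Tpc + OL9-119 replicate 3 and at 547.9 to 711.2 in the others of that group. MT-RNR1 showed the opposite order, at 9172 against 3708 to 5046 CPM with DMSO and at 4484 against 6844 to 8274 with Tpc + OL9-119. A nuclear measure, the mean log2 CPM of nuclear genes raised by OL9-119 in WT cells minus that of those lowered, was -0.49 in that DMSO library and -0.76 to -0.73 in the others, and -0.75 in that Tpc + OL9-119 library against -0.46 to -0.41 in the others. Each library was thus nearer to the other one's group. They were kept under their labels, and some of the counts of calls that rest on them are also given without them. Since MT-RNR1 is among the genes that set them apart, its values without them are not independent of that choice.

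The sequences show where neighbouring members meet: MT-ATP8 and MT-ATP6 share 46 bases, MT-ATP6 and MT-CO3 share 1, and the rRNA genes share none with their neighbours. They are from chromosome M of hg38, plus strand, 5′ to 3′. In the first pair, capitals mark bases that belong to 2 genes, and in the second pair the last 30 bases of each rRNA gene, which are followed at once by a tRNA gene in lower case.
MT-ATP8/MT-ATP6 overlap, chrM:8515-8584: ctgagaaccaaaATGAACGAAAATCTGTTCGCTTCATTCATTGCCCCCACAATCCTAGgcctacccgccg
MT-ATP6/MT-CO3 boundary, chrM:9187-9227: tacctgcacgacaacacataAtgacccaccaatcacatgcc
MT-RNR1 end, chrM:1572-1631: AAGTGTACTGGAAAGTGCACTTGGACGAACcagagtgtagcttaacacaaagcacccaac
MT-RNR2 end, chrM:3200-3259: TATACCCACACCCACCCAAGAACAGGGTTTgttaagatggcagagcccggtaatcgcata

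The overlap of MT-ATP8 with MT-ATP6 covers 46 of the 207 bases of MT-ATP8. STAR counts a read only if it touches a single gene, so reads in the overlap were left out of both genes. Reads that match a nuclear copy equally well were also left out. Of all 100-base windows of a member, 27.9% in MT-CO1, 21.2% in MT-RNR1, 11.9% in MT-ATP6, 4.7% in MT-CO3 and 2.4% in MT-CO2 occurred without mismatch in a nuclear chromosome, and 0 in MT-RNR2, MT-CYB and MT-ATP8. The 404 nuclear mitochondrial pseudogenes together held 0.785% as many counts as the 8 members, most of them on MTATP6P1 of chromosome 1, with a mean of 2943 counts per library.

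MT-RNR2 had the highest level per length, with a mean over all libraries of 9846 CPM per kb, followed by MT-CO1 with 6896. MT-CO2, MT-RNR1 and MT-CO3 lay close together at 5384, 5304 and 5056 CPM per kb, ahead of MT-ATP6 at 3782 and MT-CYB at 2724. MT-ATP8 was lowest at 1663 CPM per kb. Since poly(A) selection captures rRNA only in part, the levels of the rRNA genes are not those of the rRNAs in the cell.

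In untreated cells, 6 of the 8 members were lower in PARP1-KO than in WT cells and 0 were higher, with a median log2 fold change of -0.82 for the members and 0.17 for all tested genes. Of all tested genes, 5.74% were called lower. The 6 were MT-RNR2, MT-CO1, MT-CO2, MT-CO3, MT-CYB and MT-ATP6, and the groups did not overlap in any of them. Calls are adjusted p-values below 0.01 in the quasi-likelihood test of edgeR. In bulk RNA, fewer cells of a type and less RNA per cell cannot be told apart, nor can fewer mitochondrial genomes and fewer transcripts per genome. The markers of other cell types, 9 genes, summed to 24.5 to 34.8 CPM in untreated WT and to 10.3 to 18.5 in untreated PARP1-KO libraries, most of it COL1A1, which was at 9.1 to 43 CPM over all libraries. At equal depth 15580 to 19917 genes were detected in untreated WT and 17970 to 21174 in untreated PARP1-KO libraries. The part of the markers in the result was not tested, and with the number of genes detected as a covariate the 6 members were lower and MT-RNR1 was called higher, with a log2 fold change of 0.56 (edgeR adjusted p = 0.00725).

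MT-CO1, the catalytic subunit of cytochrome c oxidase, was at 14802, 14662, 15673 and 14017 CPM in the untreated WT libraries and at 8574, 8211, 7620 and 8480 in the PARP1-KO libraries. All 4 WT libraries were above all 4 PARP1-KO libraries, and the log2 fold change was -0.85 ± 0.08 (SE, edgeR adjusted p = 1.45e-11). MT-CO2, which accepts electrons from cytochrome c, was at 6435, 5558, 6986 and 4987 CPM in WT and at 2996, 2757, 2799 and 2884 in PARP1-KO libraries. The lowest WT library was well above the highest PARP1-KO library (log2 fold change -1.07 ± 0.12, edgeR adjusted p = 1.29e-09). MT-CO3 was at 7764, 5353, 8217 and 4698 CPM in WT and at 3374, 2934, 2656 and 3088 in PARP1-KO libraries. The WT libraries of this gene varied most among the complex IV members, with a coefficient of variation of 26.8%, and the log2 fold change was -1.11 ± 0.15 (edgeR adjusted p = 5.00e-08).

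MT-CYB, the complex III member, was at 4466, 4328, 5399 and 4043 CPM in WT and at 2997, 2027, 2098 and 2311 in PARP1-KO libraries. Replicate 1 was the highest of the PARP1-KO libraries and still below every WT library (log2 fold change -0.95 ± 0.13, edgeR adjusted p = 5.70e-08). MT-ATP6 was at 3614, 3347, 4578 and 3204 CPM in WT and at 2413, 2028, 2116 and 1999 in PARP1-KO libraries, again without overlap (log2 fold change -0.79 ± 0.13, edgeR adjusted p = 2.15e-06). MT-ATP8 was at 361.8, 432.0, 702.7 and 495.5 CPM in WT and at 348.5, 328.2, 314.3 and 227.8 in PARP1-KO libraries. These groups did not overlap either, but the log2 fold change of -0.71 ± 0.29 did not pass the threshold (edgeR adjusted p = 0.0746).

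The rRNA genes differed from each other. MT-RNR2 was at 20292, 16604, 18989 and 17246 CPM in untreated WT and at 13231, 11414, 11920 and 12122 in PARP1-KO libraries (log2 fold change -0.59 ± 0.12, edgeR adjusted p = 0.000159). MT-RNR1 was at 4517, 3332, 3711 and 2872 CPM in WT and at 4639, 3756, 3855 and 4547 in PARP1-KO libraries. Its groups overlapped, and the log2 fold change of 0.22 ± 0.19 was not called (edgeR adjusted p = 0.443), apart from the fit with the covariate given above.

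**Figure D1:**
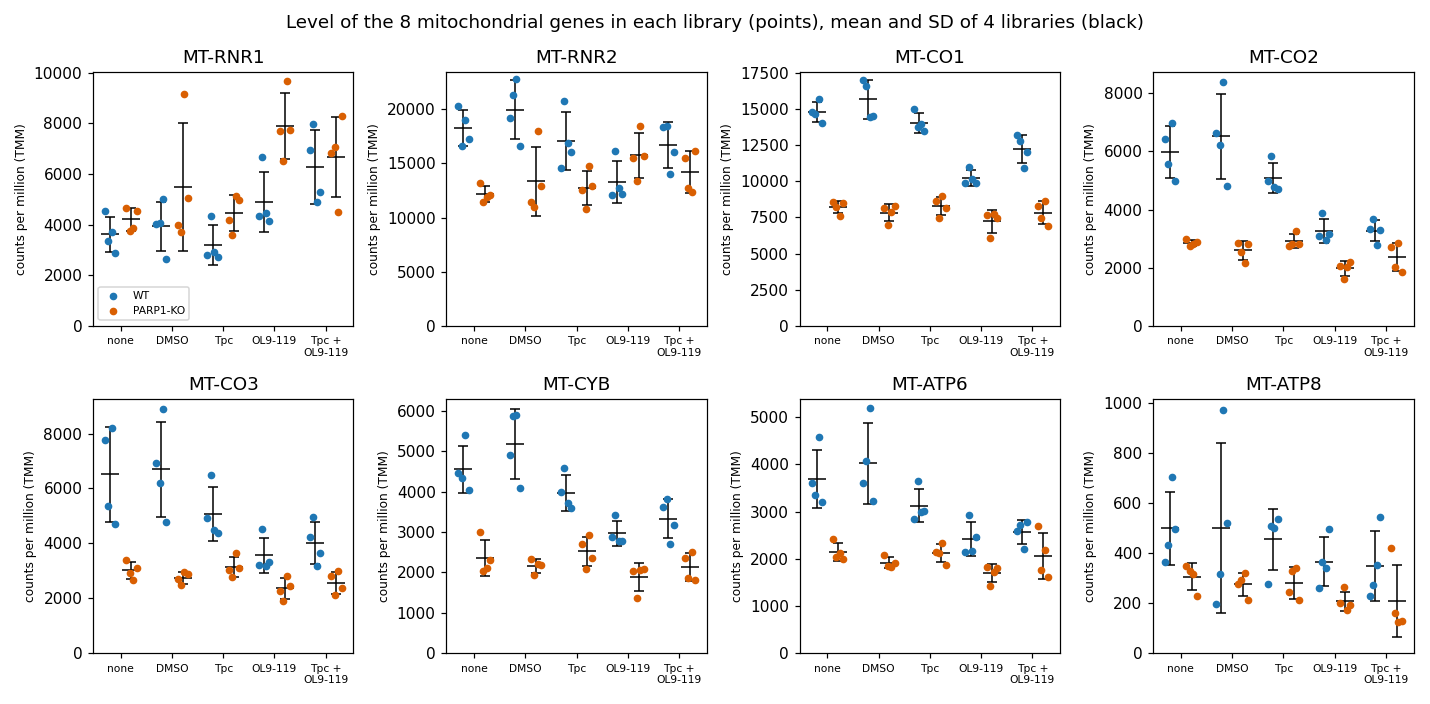
Level of each member in CPM (y axis, TMM scaled, from 0) in each library (points), by treatment (x axis) for WT (blue) and PARP1-KO (orange), with the mean and SD of 4 libraries in black. The means of the mRNA members are lower in PARP1-KO than in WT cells, but MT-ATP8 was not called under any treatment and MT-ATP6 not with Tpc + OL9-119. MT-RNR1 is highest in PARP1-KO cells with OL9-119, at a mean of 7893 CPM.

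With DMSO, the vehicle comparison, 6 members were lower in PARP1-KO cells and 0 higher (background 5.75% called lower), with a median of -1.03 against 0.19 for all tested genes. The members called were those called without treatment, with log2 fold changes from -0.58 ± 0.12 for MT-RNR2 to -1.33 ± 0.13 for MT-CO2. The call of MT-RNR2 was lost with the number of genes detected as a covariate (log2 fold change -0.31, edgeR adjusted p = 0.0242) and in a fit of only the conditions compared (-0.61, edgeR adjusted p = 0.0187). Without the library labelled DMSO replicate 3 and the library labelled Tpc + OL9-119 replicate 3, 6 members were again called. MT-RNR2 then had a log2 fold change of -0.76 (edgeR adjusted p = 1.12e-06), and that of MT-RNR1 went from 0.48 (edgeR adjusted p = 0.0646) to 0.11 (edgeR adjusted p = 0.697). MT-RNR1 was called higher with the covariate, at 0.94 (edgeR adjusted p = 1.77e-05), and without a filter on low counts, at 0.45 (edgeR adjusted p = 1.25e-05).

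With OL9-119, 5 members were lower in PARP1-KO cells (background 4.83%) and 1 was higher (background 4.94%). The 5 were the complex III and IV members and MT-ATP6, with log2 fold changes from -0.50 ± 0.08 for MT-CO1 to -0.73 ± 0.12 for MT-CO2. MT-RNR1 was the higher one, at 4328, 6670, 4437 and 4123 CPM in WT and at 7686, 6498, 9669 and 7720 in PARP1-KO libraries. Only WT replicate 2 reached the PARP1-KO range, and the log2 fold change was 0.69 ± 0.19 (edgeR adjusted p = 0.00621). This call rested on single libraries, since it was lost without PARP1-KO replicate 1, 3 or 4 or WT replicate 1, 3 or 4 (edgeR adjusted p = 0.0106 to 0.0347), and DESeq2 called 5 members here, 0 of them higher. The calls of MT-CO3 and MT-ATP6 were lost without replicate 2 of either genotype, with edgeR adjusted p-values of 0.0177 to 0.0342.

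In the Tpc groups, whose doses differed, 6 members were lower in PARP1-KO cells with Tpc (background 4.34%) and 4 with Tpc + OL9-119 (background 3.71%). With Tpc the log2 fold changes called ran from -0.42 ± 0.12 for MT-RNR2 to -0.81 ± 0.12 for MT-CO2. With Tpc + OL9-119 the members called were MT-CO1, MT-CO2, MT-CO3 and MT-CYB, from -0.47 ± 0.12 for MT-CO2 to -0.65 ± 0.13 for MT-CYB. Without the 2 libraries that stood apart, 4 members were called with Tpc + OL9-119 as well. The call of MT-RNR2 with Tpc was lost in 6 of the 8 fits that left out 1 library, without replicate 1, 2 or 4 of PARP1-KO or 2, 3 or 4 of WT cells (edgeR adjusted p = 0.0103 to 0.0966). With Tpc + OL9-119, 2 members were called without replicate 2 of either genotype and 6 without PARP1-KO replicate 1.

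**Figure D2:**
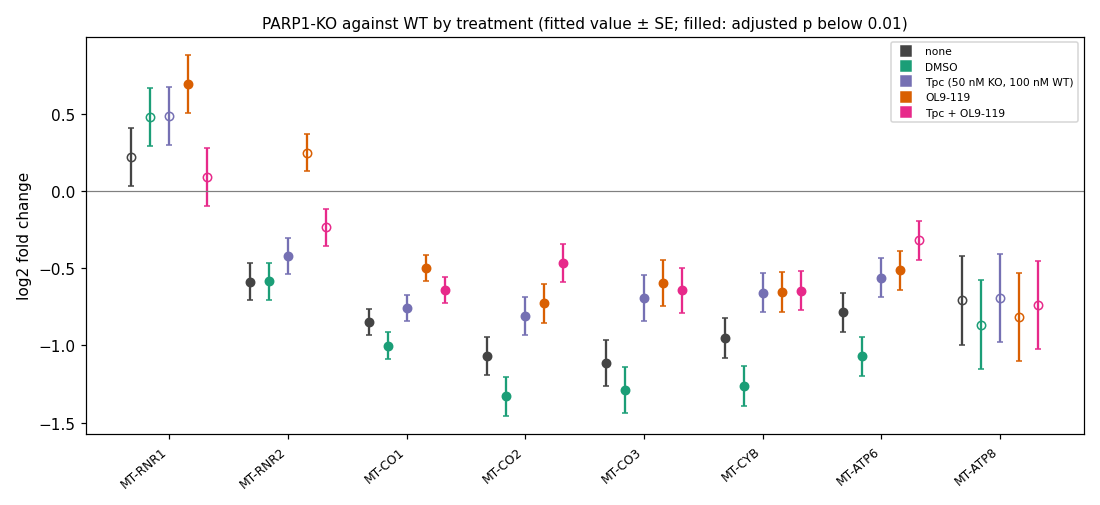
Fitted log2 fold change of PARP1-KO against WT cells (y axis, ± SE) for each member (x axis) under each of 5 treatments (colours), filled where the adjusted p was below 0.01. MT-CO1, MT-CO2, MT-CO3 and MT-CYB are below 0 and filled under every treatment, and MT-RNR1 is filled with OL9-119 alone.

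The library names carry 1 of 3 prefixes whose meaning is not stated. Within each prefix that held both genotypes, MT-CO1, MT-CO2, MT-CO3, MT-CYB and MT-ATP6 were lower in PARP1-KO than in WT cells under every treatment, also without the 2 libraries that stood apart. In untreated cells the difference in mean log2 level within a prefix was -0.82 to -0.87 for MT-CO1 and -0.97 to -1.16 for MT-CO2. For MT-ATP8 with DMSO it went from 0.54 to -1.75 between prefixes, and its WT libraries with DMSO, at 194.8, 317.0, 969.4 and 518.7 CPM, were spread more widely than those of any other member.

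DMSO alone changed 0 members in WT (background 0%) and 0 in PARP1-KO cells (background 0%) in edgeR, and 0 in DESeq2. At an unadjusted p below 0.05 there were 0 members in WT and 1 in PARP1-KO cells, and 3116 and 538 of all 28922 tested genes. Tpc alone changed 0 members in WT cells, where 0.857% of all tested genes were called, and 0 in PARP1-KO cells, where 0.0138% were called. DESeq2 called 0 in each. At an unadjusted p below 0.05, 1 member was found in WT and 0 in PARP1-KO cells, beside 4499 and 1713 of all 28922 tested genes. The 1 member was MT-CO3, with a log2 fold change of -0.36 ± 0.15 (edgeR adjusted p = 0.208).

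OL9-119 in WT cells lowered 5 members and raised 0, where 0.833% of all tested genes were called lower, with a median log2 fold change of -0.57 for the members and 0.00 for all genes. MT-CO1 was at 9850, 10988, 10167 and 9897 CPM in the 4 treated WT libraries (log2 fold change against no treatment -0.53 ± 0.08, edgeR adjusted p = 1.98e-05). Each treated library was below each untreated library, whose lowest value was 14017 CPM. MT-CO2, at 3106, 3865, 2954 and 3146 CPM, fell by 0.87 ± 0.12 on the log2 scale (edgeR adjusted p = 2.45e-06). MT-CO3, at 3218, 4509, 3184 and 3317 CPM, also fell by 0.87 ± 0.15 (edgeR adjusted p = 8.20e-05). The other members called were MT-CYB, which fell by 0.62 ± 0.13, and MT-ATP6, which fell by 0.61 ± 0.12, and the treated and untreated groups did not overlap in any of the 5. Without untreated replicate 3, 3 members were called, since MT-CYB and MT-ATP6 missed the threshold (edgeR adjusted p = 0.0206 and 0.0290). A fit of only the 2 conditions called 1 member.

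MT-RNR2 was at 12091, 16147, 12708 and 12155 CPM in WT cells with OL9-119, all below the untreated libraries, but its log2 fold change of -0.46 ± 0.12 missed the threshold (edgeR adjusted p = 0.0168). It was called without the 2 libraries that stood apart, which enter this fit through the shared estimate of the spread (edgeR adjusted p = 0.00363). MT-RNR1 had a log2 fold change of 0.44 ± 0.19 (edgeR adjusted p = 0.222), and its groups overlapped.

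Tpc + OL9-119 in WT cells lowered 3 members (background 2%) and raised 1 (background 2.07%) against no treatment. MT-RNR1 was the member raised, at 6945, 7985, 4879 and 5294 CPM against 2872 to 4517 in untreated libraries, without overlap (log2 fold change 0.80 ± 0.19, edgeR adjusted p = 0.00322). The call of MT-RNR1 was lost without untreated replicate 2 or 4 or treated replicate 1 or 2 (edgeR adjusted p = 0.0108 to 0.0243). It was also lost in DESeq2 (adjusted p = 0.0250) and against DMSO-treated WT cells (log2 fold change 0.67, edgeR adjusted p = 0.0169), where it was called without the 2 libraries that stood apart (0.66, edgeR adjusted p = 0.00345). MT-CO2 fell by 0.87 ± 0.12, MT-CO3 by 0.70 ± 0.15 and MT-ATP6 by 0.52 ± 0.12 on the log2 scale, and 2 members in all were called without untreated replicate 3 or without treated replicate 1. Against Tpc alone, 1 member was higher (background 0.118%) and 1 lower (background 0.0622%). They were MT-RNR1, with a log2 fold change of 0.98 ± 0.19 (edgeR adjusted p = 0.00295), and MT-CO2, with one of -0.63 ± 0.12 (edgeR adjusted p = 0.00307). DESeq2 called 1 member, which was lower. In edgeR 0 were called without replicate 1 of Tpc + OL9-119, and 1 without its replicate 2 or 3 or without any 1 of the Tpc libraries.

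In PARP1-KO cells edgeR called 0 members with OL9-119 (background 0.00346%), 0 with Tpc + OL9-119 (background 0%) and 0 with Tpc + OL9-119 against Tpc (background 0%), and DESeq2 called 0 in each. At an unadjusted p below 0.05 there were 7, 2 and 2 members, and 931, 1241 and 1186 of all 28922 tested genes. MT-RNR1 was at 7686, 6498, 9669 and 7720 CPM with OL9-119, all above the untreated PARP1-KO libraries at 3756 to 4639, with a log2 fold change of 0.91 ± 0.19 (edgeR adjusted p = 0.0796). Without the 2 libraries that stood apart it was 0.90 and passed the threshold (edgeR adjusted p = 0.00316). With Tpc + OL9-119 the log2 fold change of MT-RNR1 was 0.67 (edgeR adjusted p = 1.00), and 0.80 without those libraries (edgeR adjusted p = 0.0194). MT-CO2 had a log2 fold change of -0.54 ± 0.12 with OL9-119, without overlap (edgeR adjusted p = 0.204).

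**Figure D3:**
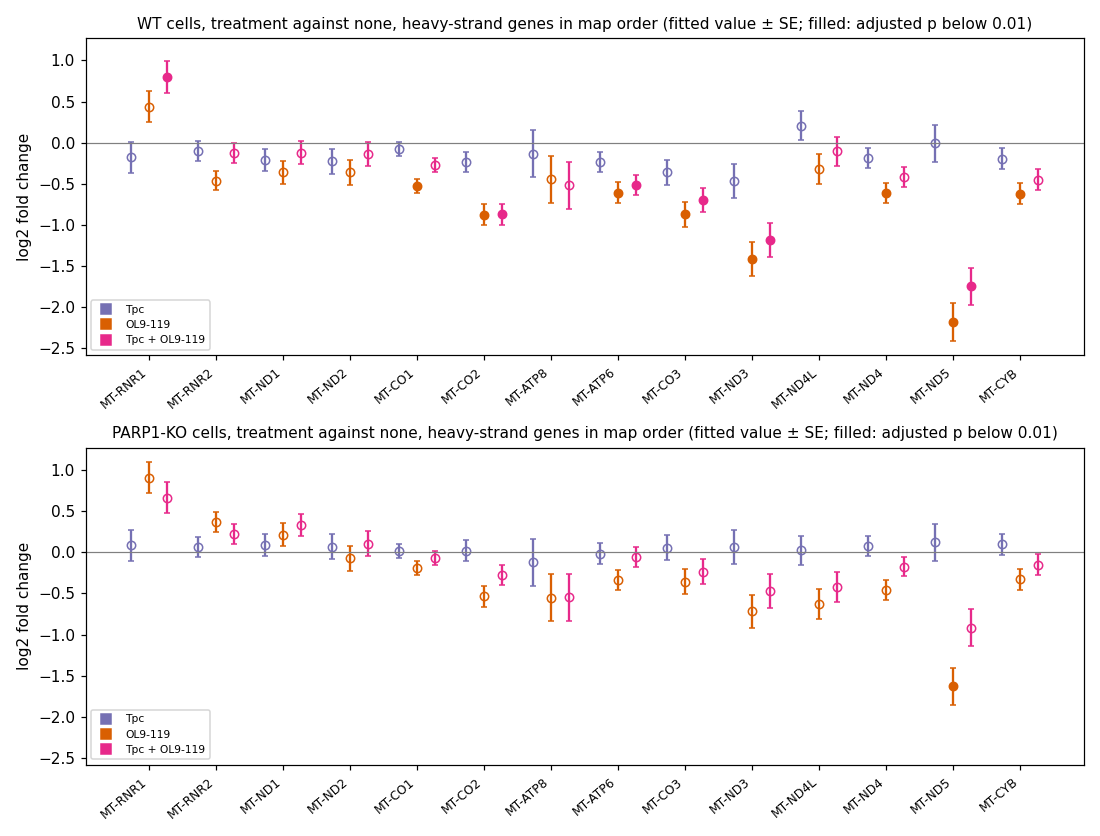
Fitted log2 fold change against no treatment (y axis, ± SE) for heavy-strand genes in map order (x axis) in WT (top) and PARP1-KO cells (bottom) with Tpc, OL9-119 and both (colours), filled where the adjusted p was below 0.01. MT-RNR1 is above 0 with OL9-119, and MT-ND5 is lowest, at -2.18 (WT) and -1.63 (PARP1-KO).

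The difference between the genotypes in the response was tested for each treatment. For OL9-119, edgeR called 0 members (background 0.0657%). For Tpc it called 0 (background 0.1%) and for Tpc + OL9-119 also 0 (background 0.27%), and DESeq2 called 0 in each. At an unadjusted p below 0.05 there were 3, 1 and 4 members, and 1968, 2142 and 3420 of all 28922 tested genes. MT-RNR2 was nearest to the threshold with OL9-119, with a difference of 0.83 ± 0.17 on the log2 scale (edgeR adjusted p = 0.0102). It was lower than untreated in WT cells with OL9-119 and was at 15526, 13338, 18419 and 15703 CPM in PARP1-KO cells, above every untreated PARP1-KO library. Without the 2 libraries that stood apart its difference was also 0.83 and was called (edgeR adjusted p = 0.00113), as it was without untreated PARP1-KO replicate 1, treated PARP1-KO replicate 2, untreated WT replicate 2 or 4 or treated WT replicate 2 (edgeR adjusted p = 0.00146 to 0.00888).

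Ratios of members within a library do not depend on the scaling between libraries. The log2 ratio of MT-RNR2 to MT-RNR1 counts was 2.36 ± 0.17 (SD, n = 4) in untreated WT and 1.54 ± 0.10 in untreated PARP1-KO cells. With OL9-119 it was 1.46 ± 0.13 in WT and 1.00 ± 0.05 in PARP1-KO cells. Neither pair of groups overlapped, and each treated group was below its untreated group. The rRNA genes together took 37.9 ± 2.01% of the counts on the members in untreated WT and 46.4 ± 0.81% in untreated PARP1-KO cells, and 44.2 ± 1.83% and 60.6 ± 1.86% with OL9-119. Each of these differences had p = 0.0286 in the exact two-sided permutation test, the smallest that 4 against 4 libraries allow. Over the 66 tests of 6 such values in 11 comparisons, 20 had this p and 0 passed after adjustment, with a smallest adjusted p of 0.0943. A call at 0.05 would have needed 38 of the tests at the smallest p.

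With DMSO the rRNA share was 45.6, 47.8, 61.0 and 49.6% in the PARP1-KO libraries, and with Tpc + OL9-119 it was 53.7, 56.3, 46.6 and 62.5%. In each group replicate 3 lay outside the range of the others. Without these libraries the means were 47.7 ± 1.98% and 57.5 ± 4.54% (SD, n = 3). The share includes MT-RNR1, which was among the genes that set these libraries apart. Neither their place outside the range nor these means are independent of that choice.

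**Figure D4:**
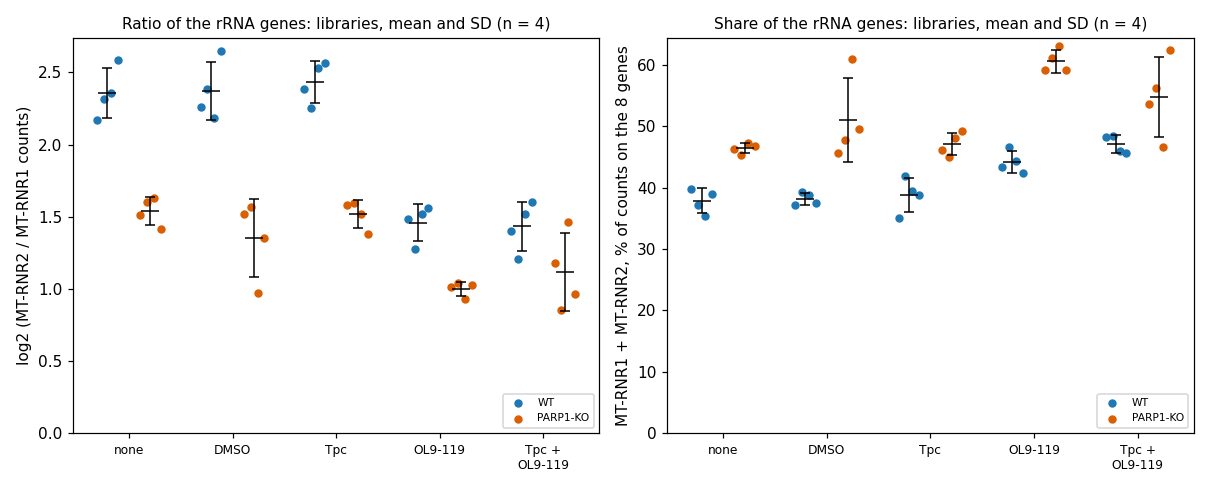
Log2 ratio of MT-RNR2 to MT-RNR1 counts (left) and the share of both genes in the counts on the 8 members in percent (right), by treatment, for each WT (blue) and PARP1-KO (orange) library, with mean and SD of 4 libraries in black. The ratio is 2.36 in untreated WT cells and 1.00 in PARP1-KO cells with OL9-119.

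Position along the heavy strand was described by the slope of log2 count per kb of gene start over its 12 mRNA genes. The counts were not divided by gene length, so the slope within a group also reflects the lengths of the genes. The slope was -0.0544 ± 0.0125 (SD, n = 4) in untreated WT and -0.0193 ± 0.0051 in untreated PARP1-KO cells, and it was -0.129 ± 0.0016 and -0.106 ± 0.0014 with OL9-119. MT-ND5, near the far end, had a log2 fold change of -2.18 ± 0.23 with OL9-119 in WT and of -1.63 ± 0.23 in PARP1-KO cells, while MT-CYB, the farthest mRNA gene, fell by 0.62 in WT cells. The change with OL9-119 in WT cells was thus not a steady fall with distance, and the part of MT-ND5 alone in the slope is not given here. The ratio of MT-CYB to MT-CO1 differed by -0.08 on the log2 scale between WT cells with OL9-119 and without (exact permutation p = 0.314). The log2 ratio of MT-ATP6 to MT-ATP8, which share an mRNA, ranged from 2.75 to 3.48 between the group means and had SDs of 0.22 to 0.85 within groups.

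MT-CO1, MT-CO2, MT-CO3, MT-CYB and MT-ATP6 moved together, with Pearson's r from 0.908 to 0.966 between any 2 of them over 40 libraries, which share depth and genotype. MT-ATP8 had r of 0.552 to 0.706 with these 5, and MT-RNR1 had r of -0.389 to -0.574 with them. Over the 10 condition means, the nuclear genes most like the summed members among 10495 with a mean of at least 10 CPM were NQO2 (r = 0.973), OLFM1 (r = 0.972), ADI1, THYN1 and TXNDC9.

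The complex I genes of the heavy strand, the neighbours of the members, were lower in untreated PARP1-KO cells for 4 of 6 (background 5.74%). Without the 2 libraries that stood apart, 5 of 6 were lower (background 5.81%). MT-ND1 had a log2 fold change of -1.19 ± 0.14 and MT-ND4L one of -0.16 ± 0.18. MT-ND6, the light-strand gene, had one of -1.02 ± 0.23. With OL9-119 in WT cells 3 of the 6 were lower (background 0.833%), MT-ND3, MT-ND4 and MT-ND5, with log2 fold changes of -1.41, -0.62 and -2.18.

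Nuclear genes of the same complexes were counted in lists. In untreated PARP1-KO against WT cells, 3 of 9 nuclear complex III genes, 6 of 11 complex IV genes and 8 of 18 complex V genes were lower (background 5.74%) and 0 were higher, with median log2 fold changes of -0.31, -0.54 and -0.45. With DMSO 5, 6 and 8 were lower (background 5.75%), and 2, 5 and 4 without the 2 libraries that stood apart (background then 4.38%). With DMSO the lowest of them included COX8A and NDUFA4 of complex IV, with log2 fold changes of -1.09 and -1.06, and ATP5MF of complex V with -0.93, the last of which missed the threshold without those libraries (edgeR adjusted p = 0.0129). In WT cells with Tpc + OL9-119, 4, 5 and 10 genes of these lists were lower (background 2%) and 0 were higher, among them UQCRH, COX6B1 and ATP5MC1 with log2 fold changes of -0.75, -0.95 and -1.06.

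Genes that act on mitochondrial DNA and RNA were counted in the same way. Of all tested genes, 5.97% were called higher in PARP1-KO than in WT cells without treatment and 6.67% with DMSO, and 5.08% with DMSO without the 2 libraries that stood apart. Of 8 mitochondrial transcription genes, 1 was higher and 1 lower without treatment, and 3 were higher and 0 lower with DMSO, or 2 and 0 without those libraries. With DMSO, POLRMT, the mitochondrial RNA polymerase, had a log2 fold change of 0.66 ± 0.18 (0.80 without them). TFB2M, its initiation factor, had one of 1.23 ± 0.33, which missed the threshold without them (1.15, edgeR adjusted p = 0.0179).

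Of 11 genes of mitochondrial DNA maintenance, 2 were higher and 0 lower without treatment and 3 and 0 with DMSO, or 2 and 0 without the 2 libraries, among them the helicase gene TWNK with 0.62 ± 0.14. With OL9-119 and with Tpc + OL9-119 0 were higher and 1 lower (background 4.83% and 3.71% lower). Of 21 genes of mitochondrial RNA processing and stability, 1 was higher and 4 lower without treatment and 2 and 4 with DMSO, or 1 and 4 without the 2 libraries. FASTK was lower with DMSO, at -1.06 ± 0.21, while PDE12, which removes poly(A) tails in mitochondria, was at 0.77 ± 0.19 and missed the threshold without them (edgeR adjusted p = 0.0103). Of 17 genes of rRNA modification and ribosome assembly, 1 was higher and 1 lower with DMSO, or 0 and 0 without the 2 libraries. Of 31 assembly factors of complexes III to V, 3 were higher and 8 lower with DMSO, or 0 and 7 without them, COA3 lowest with -1.36 ± 0.18.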

How the data were processed

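Per the labels and the study's methods, the authors made directional poly(A) libraries, aligned paired-end reads to hg38 with STAR 2.7.8 and deposited raw counts per gene, without normalization or pooling. Which strand column of the STAR output was kept is not given in the sources used here. The submitters' processing notes also name FastQC 0.11.9 and Picard 2.26.6. Symbols and positions are from GENCODE, whose annotation matched 57754 of 58395 genes.

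Genes with at least 10 counts over all 40 libraries were tested with TMM scaling and the quasi-likelihood test of edgeR 4.0.16 in R 4.3.3, with 1 group per condition, no covariate and Benjamini-Hochberg adjustment over all tested genes (threshold 0.01). The SE is the log2 fold change divided by the square root of F. Values of single libraries were compared by exact two-sided permutation over 70 divisions. Counting error is small for the members, whose lowest count in a library was 1203, so the number of libraries limits the precision. The scripts were tested on simulated data.

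Alternatives were DESeq2 1.42.0, other scalings, filters, thresholds, sets of libraries and comparators, a replicate block, the name prefix as a batch, library complexity as a covariate, and each library left out. The fits without the 2 PARP1-KO libraries that stood apart were added after seeing the data. The members and gene lists were chosen with earlier results of these data known, and nothing in them is independent of those. Genes other than members were named by rule: up to 2 highest and 2 lowest called genes of each list with a mean of at least 50 counts in PARP1-KO against WT cells with DMSO and in WT cells with Tpc + OL9-119, the other mRNA genes of chromosome M, PARP1, 3 pseudogenes and the 5 genes most like the members.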

Additional observations from a re-analysis of the deposited data

Results flagged for a closer look

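In groups of 4 libraries, 10 of 80 groups had 1 library far from the other 3 by Dixon's test, where chance alone would give about 4. WT replicate 2 with OL9-119, the highest of its group for 7 of the 8 members, was far above the others for 4 of them, at 6669.8 CPM for MT-RNR1, 16147 CPM for MT-RNR2, 4508.6 CPM for MT-CO3 and 3423.8 CPM for MT-CYB. PARP1-KO replicate 2 with OL9-119 was the lowest of its group, at 6074.5 CPM for MT-CO1 and 1371.2 CPM for MT-CYB. WT replicate 2 with Tpc was high for MT-RNR1 at 4348.7 CPM, and PARP1-KO replicate 3 with Tpc was high for MT-CO2 at 3260.4 CPM. MT-ATP8 was high in PARP1-KO replicate 1 with Tpc + OL9-119 at 420.83 CPM and low in WT replicate 1 with Tpc at 274.43 CPM.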

How the results depend on the processing

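No member reversed a called direction under any alternative run. Without any 1 library, and without the 2 libraries that stood apart, the 66 differences in shares, ratios and slopes moved by less than 1 SD. Leaving 1 of 4 libraries out of a group cannot move a difference by more, and no comparison held both libraries that stood apart. This therefore does not show that the differences hold. The slope of PARP1-KO cells with DMSO differed by -0.0197 from untreated, and by -0.0292 to 0.0003 with 1 library left out. With DMSO-treated cells as comparator or another form of the value, only the calls were compared, and no difference was called. The differences could be of another size there. In PARP1-KO cells the rRNA share was 60.6 ± 1.86% with OL9-119, 51.0 ± 6.86% with DMSO and 46.4 ± 0.81% untreated. In PARP1-KO against WT cells, 6 members were called without treatment, and between 6 and 7 with DMSO, with each library left out in turn. With Tpc + OL9-119 these fits called 2 to 6, and 2 with library complexity as a covariate. In WT cells, OL9-119 gave 8 calls without a filter on low counts (7 lower and 1 higher), 1 in a fit of only the conditions compared, and 3 to 6 with a library left out. Tpc gave 1 call without a filter. Tpc + OL9-119 gave 2 calls in a fit of only the conditions compared and 2 to 4 with a library left out. Against Tpc it gave 1 call in DESeq2, 1 with filterByExpr and 0 to 2 with a library left out. In PARP1-KO cells, OL9-119 gave 4 calls without a filter and 4 in a fit of only the conditions compared (2 higher and 2 lower in each), 1 (higher) with the complexity covariate and 1 (higher) without the 2 libraries that stood apart. Tpc + OL9-119 gave 1 call without a filter and 1 in a fit of only the conditions compared, and against Tpc 1 without a filter. The genotype difference in the OL9-119 response gave 1 call, MT-RNR2, at an adjusted p below 0.05, with DMSO-treated cells as comparator (also without the 2 libraries that stood apart), without those libraries, with the complexity covariate, with the prefix as batch, without a filter, in a fit of only the conditions compared, with scaling on nuclear genes, and 0 to 1 with a library left out. That of Tpc + OL9-119 gave 1 call with DMSO-treated cells as comparator and 1 without a filter. With a library left out, 195 to 713 of all tested genes were called with OL9-119 in WT cells. With Tpc + OL9-119 it was 697 to 1559, and 32 to 53 against Tpc. In PARP1-KO against WT cells it was 2631 to 3517 untreated, 2734 to 3722 with DMSO and 1560 to 1773 with Tpc + OL9-119. The share over all genes is not given here for the other alternatives, and whether the members moved with it was not tested. The cause of these changes in calls was not tested.

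Replicate numbers were not used to pair the samples, since in no comparison did all same-numbered libraries correlate above 0.1. Some did: r was 0.398 to 0.806 for replicate 4 in comparisons within WT cells. It was 0.322 to 0.64 for replicate 2 in comparisons within PARP1-KO cells. Others were negative, down to -0.46, so a partial pairing remains possible. With the replicate block, the genotype difference in the OL9-119 response had 1 call, and no other count of members moved by over 1.5 times. For the shares, ratios and slopes the block leaves the differences as they are, and its smallest p of 0.125 allows no call.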
